A study of Mus musculus with 11 samples.

Results

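The Fc gamma receptor genes of the mouse, which encode the cell-surface receptors for IgG, were followed in BV2 microglial cells given an amino-terminal fragment of apolipoprotein E. The 5 genes were taken by symbol from the 36529 genes listed in the count tables. They were the activating receptors Fcgr1, Fcgr3 and Fcgr4, their shared signalling chain Fcer1g and the inhibitory receptor Fcgr2b. BV2 is a transformed mouse microglial cell line, labelled here as C57BL/6, and it is 1 line and not primary tissue. Total RNA of 11 samples was sequenced. In the first experiment, 3 samples (ApoE4) had received the fragment of residues 1 to 151 of apoE4, called nApoE4 here, at 25 µg/ml for 5 h, and 3 samples (ControlA) were its controls. In the second, 2 samples (ApoE3) had received the fragment of the same residues of apoE3, called nApoE3, at the same dose and time, and 3 samples (ControlB) were its controls. Per the study's methods both fragments carried a histidine tag, and they differ at 1 residue. The controls are labelled untreated. The submitters' treatment text names a PBS vehicle and the study's methods name conditioned medium, and which of these the controls had received is not known. Each fragment was given in its own experiment, so a difference between the fragments and a difference between the experiments cannot be told apart. The labels do not say that replicates came from separate cultures, and p-values therefore measure the spread between these samples alone.

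Activating Fc gamma receptors bind the tail of IgG on coated particles. They signal through a tyrosine-based activation motif (ITAM) on the common gamma chain, the product of Fcer1g, which recruits the kinase Syk and leads to phagocytosis and cytokine release. FcγRIIb, the product of Fcgr2b, carries an inhibitory motif (ITIM) instead and recruits the lipid phosphatase SHIP-1, the product of Inpp5d. The balance between the activating and the inhibitory receptors is known to set the response of macrophages and microglia to immune complexes. FcγRI, from Fcgr1, binds single IgG molecules with high affinity, whereas the receptors from Fcgr3 and Fcgr2b bind mainly immune complexes.

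All 5 genes except Fcgr1 lie close together on chromosome 1. In GRCm38.p6, Fcgr2b (chr1:170960558-170976071, minus strand), Fcgr4 (chr1:171018926-171029761, plus strand) and Fcgr3 (chr1:171051169-171065915, minus strand) span 105.4 kb. Fcer1g (chr1:171229572-171234349, minus strand) follows 163.7 kb further on, and Fcgr1 is on chromosome 3 (chr3:96282909-96293969, minus strand). Fcgr2b and Fcgr3 are near-identical over part of their coding sequence. Of the 75-base windows of the 1462-base Fcgr2b transcript that matches the RefSeq gene, 94 of 1388 (6.77%) were also in an Fcgr3 transcript, and 94 of the 1273 windows of Fcgr3 (7.38%) were in Fcgr2b. Reads from these windows cannot be given to 1 of the genes, so the counts of both are uncertain to that extent. No such window was found for Fcgr1, Fcgr4 or Fcer1g. Fcgr3 also overlaps 4 listed small RNA genes (3 of tRNA and Mir6546). The longest run common to both transcripts is 129 bases, all coding, in exons 3 and 4 of each gene. It spans chr1:170966674-170968081 in Fcgr2b and chr1:171054167-171057792 in Fcgr3, with an intron in between. It is shown because a read wholly inside it matches both the inhibitory and an activating receptor gene.
Fcgr2b and Fcgr3 shared run: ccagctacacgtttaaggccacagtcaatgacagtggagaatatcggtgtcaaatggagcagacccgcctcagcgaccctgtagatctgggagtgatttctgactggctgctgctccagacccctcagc

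The promoters of 4 of the genes are shown from RefSeq on GRCm38.p6, as the 250 bases before the transcription start and the 50 that follow, because the genes differed in their response. Position -1 is the base before the start. Capitals mark matches, on either strand, to the interferon gamma activated site TTCNNNGAA, the interferon-stimulated response element (a pair of GAAA with any 2 bases between them) and the core GAGGAA bound by PU.1, the myeloid factor encoded by Spi1. Of 32851 promoters of that length, 8.30% held the first motif, 3.44% the second and 28.3% the third.
Fcgr1 (chr3:96293920-96294219, minus strand): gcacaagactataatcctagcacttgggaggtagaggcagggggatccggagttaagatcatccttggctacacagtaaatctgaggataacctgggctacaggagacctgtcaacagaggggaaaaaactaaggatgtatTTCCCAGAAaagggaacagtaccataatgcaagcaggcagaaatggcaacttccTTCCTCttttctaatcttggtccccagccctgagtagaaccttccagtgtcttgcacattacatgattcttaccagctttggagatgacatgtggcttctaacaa
Fcgr3 (chr1:171059354-171059653, minus strand): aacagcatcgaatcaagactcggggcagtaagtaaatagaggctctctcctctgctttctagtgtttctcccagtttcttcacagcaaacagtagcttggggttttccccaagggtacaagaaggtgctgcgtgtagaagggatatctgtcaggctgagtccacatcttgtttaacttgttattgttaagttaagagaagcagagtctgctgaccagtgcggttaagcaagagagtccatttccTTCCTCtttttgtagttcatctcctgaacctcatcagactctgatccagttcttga
Fcgr4 (chr1:171018676-171018975, plus strand): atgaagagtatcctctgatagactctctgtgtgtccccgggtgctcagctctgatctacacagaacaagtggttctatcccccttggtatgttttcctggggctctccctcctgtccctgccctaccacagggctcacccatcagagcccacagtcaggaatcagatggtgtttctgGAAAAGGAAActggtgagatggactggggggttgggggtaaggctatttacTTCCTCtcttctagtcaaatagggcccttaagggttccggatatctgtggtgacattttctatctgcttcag
Fcgr2b (chr1:170976022-170976321, minus strand): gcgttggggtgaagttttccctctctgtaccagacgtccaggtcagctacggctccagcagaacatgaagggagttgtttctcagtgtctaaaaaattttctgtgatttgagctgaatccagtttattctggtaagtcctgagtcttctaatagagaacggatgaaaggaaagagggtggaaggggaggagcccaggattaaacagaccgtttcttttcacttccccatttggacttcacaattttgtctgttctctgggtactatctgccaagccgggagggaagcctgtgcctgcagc
The Fcgr1 window held TTCCCAGAA at -109 to -101 and the PU.1 core at -55 to -50. In Fcgr3 only the PU.1 core was found, at -6 to -1. RefSeq gives Fcgr3 a second start close by, whose window (chr1:171059345-171059644) largely repeats the first and so holds the same match. Both Fcgr3 windows lie inside the gene span given above and not at its upstream end. Fcgr4 held GAAAAGGAAA at -73 to -64 and the PU.1 core at -22 to -17. Neither Fcgr2b nor Fcer1g (chr1:171234300-171234599, minus strand) held any of the 3 motifs in this window. A further motif, the kappa B form (GGG, then any 5 bases, then CC), was in 50.8% of all promoters and matched in all of the 5 genes but Fcgr1. These matches describe letters and not binding.

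Libraries of the nApoE4 experiment held 39732710 to 44162511 counts on genes and those of the nApoE3 experiment 55809688 to 69768666. No 2 replicates were identical. ControlA replicate 2 stood apart from its group, with a median absolute log2 deviation over genes of 0.185 from the other replicates, against 0.0509 to 0.144 for the other 10 libraries. Its levels were 1.05 times (Fcgr2b) to 1.32 times (Fcgr4) the mean of the other ControlA libraries, so results that rest on it are given with and without it. Of 12 microglia and macrophage markers, 11 were above 3 counts in some library and 9 in every library, with a summed level of 2439 to 3379 CPM (counts per 1000000 counts on genes). The microglia markers Aif1 and Cx3cr1 are among the 11 but were nearly absent, with 0 to 10 and 3 to 43 counts per library. P2ry12, a marker of homeostatic microglia, was listed at 0 throughout, and Trem2 stood at 2578 counts in ControlA replicate 1 against 21 to 220 in the other 10 libraries. Of 9 lists of 4 markers for other cell types, Ms4a1 (B cells), Cd3e (T cells), Ncr1 (NK cells), Ly6g (neutrophils), Fcer1a (mast cells) and Mog (oligodendrocytes) were at 3 counts or fewer in every library. Other markers of the same lists were not, with up to 56 counts on S100a8, 31 on Pax5, 26 on Cpa3 and 21 each on Cd79a and Klrb1c. The summed level of the astrocyte list was 1.20 to 1.39 CPM in ControlA, 6.02 to 7.02 CPM with nApoE4, 1.05 to 1.22 CPM in ControlB and 4.36 to 4.53 CPM with nApoE3, where Slc1a2 held 250 or more counts in every treated library and at most 70 in a control. The oligodendrocyte list was at 1.56 to 4.66 CPM, the neutrophil list at 0.0708 to 1.41 CPM and the other 6 lists below 1 CPM. Their part in the results was not tested. P2ry12 and B2m, the light chain of the neonatal Fc receptor and of class I molecules that nearly all cells make, were both listed at 0, and each overlaps another listed gene, so a value of 0 in these tables does not show that a gene was silent. In these bulk samples a change in the number of cells and a change in RNA per cell cannot be told apart.

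Levels are given as CPM, scaled with edgeR's trimmed mean of M values (TMM) over all libraries. Differences are from edgeR's quasi-likelihood test, with p-values adjusted over all genes tested by the Benjamini-Hochberg method and called at an adjusted p under 0.05. In short, Fcgr2b rose and Fcgr3 fell with either fragment. Fcgr1 fell with nApoE4, while Fcgr4 and Fcer1g rose with nApoE3. With nApoE4, 3 of the 5 genes were called (1 higher and 2 lower), against 57.2% of the 14240 genes tested (28.6% higher and 28.6% lower). With nApoE3, 4 of 5 were called (3 higher and 1 lower), against 67.7% of 14817 genes (33.1% higher and 34.6% lower). The share of called members is near the background in both experiments, and the results lie in the size and direction of each gene. All 5 genes passed the filter on low counts in every comparison. Among all called genes the share that was higher was 49.9% with nApoE4 and 48.9% with nApoE3. Scaling by library totals alone lowered these shares to 39.9% and 34.6%, and moved the median log2 difference of all genes from 0.0013 to -0.089 and from -0.0026 to -0.13.

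**Figure D1:**
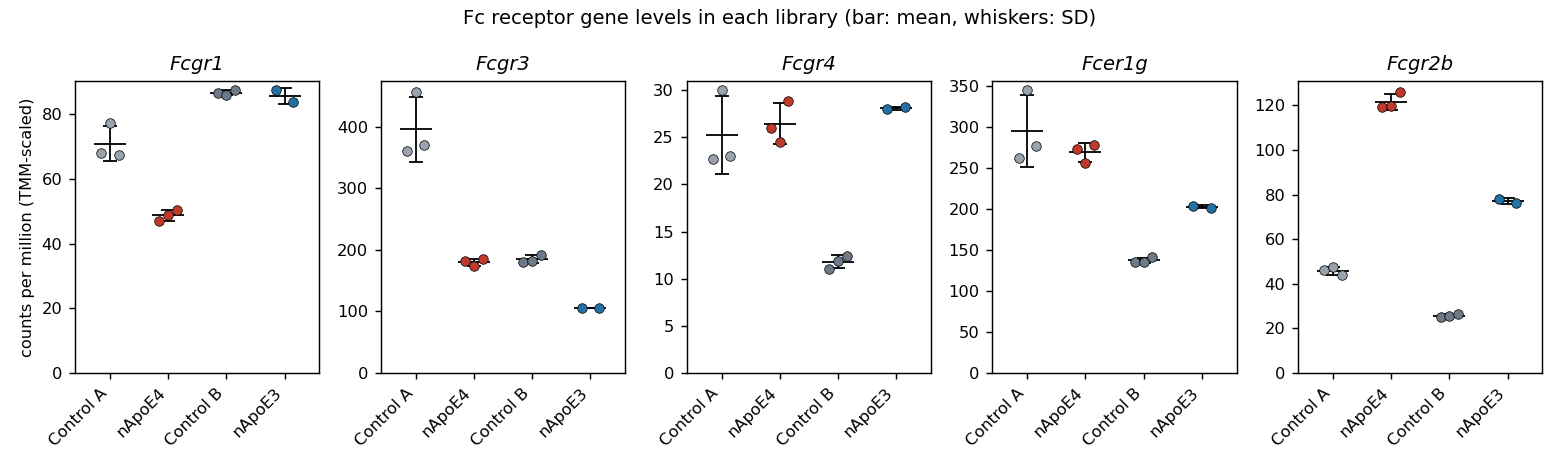
Level of each gene in each of the 11 libraries, in TMM-scaled CPM on axes that start at 0. Points are libraries, the horizontal bar is the group mean and the whiskers are the SD (n = 3, or 2 for nApoE3). Fcgr2b is above its controls with both fragments and Fcgr3 below, while Fcgr4 and Fcer1g separate from their controls with nApoE3 alone.

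Fcgr3, the low-affinity activating receptor, was the most abundant of the 4 receptors per length. It stood at 360.5, 456 and 370.2 CPM in ControlA and at 181, 174 and 185 CPM with nApoE4. Every treated library was under every control, and the fall was 2.19-fold (log2 -1.13, SE 0.092, adjusted p = 4.43e-06). Without ControlA replicate 2 the log2 difference was -1.02 (adjusted p = 8.27e-09). In the second experiment Fcgr3 was at 180.1, 182 and 192 CPM in ControlB and at 106 CPM in both libraries with nApoE3. The groups were again apart, and the fall was 1.75-fold (log2 -0.81, SE 0.031, adjusted p = 2.24e-10). Of all genes tested, 6.17% had a lower log2 difference than Fcgr3 with nApoE4 and 9.72% with nApoE3.

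Fcgr1, the high-affinity receptor, was at 68.1, 77.2 and 67.5 CPM in ControlA and at 47.003, 48.96 and 50.3 CPM with nApoE4. The groups did not overlap, and Fcgr1 fell 1.45-fold (log2 -0.54, SE 0.067, adjusted p = 9.44e-05; without ControlA replicate 2, -0.48, adjusted p = 7.53e-06). ControlB was at 86.5, 86.1 and 87.6 CPM and nApoE3 at 87.5 and 83.9 CPM. These overlapped, and the log2 difference of -0.024 (SE 0.029, adjusted p = 0.490) had a 95% interval of -0.087 to 0.040. Scaled by library totals alone, the same difference was -0.16 and was called (adjusted p = 3.09e-04).

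Fcgr4, the activating receptor that mice carry beside Fcgr3, was the least counted of the 5 genes, with 699 to 1629 counts per library. ControlA stood at 22.7, 30.0 and 23.0 CPM and nApoE4 at 26.0, 24.5 and 28.8 CPM. The highest value was in ControlA replicate 2, and the groups overlapped. The log2 difference was 0.072 (SE 0.11, adjusted p = 0.609), with a 95% interval of -0.18 to 0.32. Without ControlA replicate 2 it was 0.21 and was called (adjusted p = 0.0286), so this result rests on that library. ControlB stood lower, at 11.05, 11.9 and 12.4 CPM, and nApoE3 at 27.99 and 28.2 CPM. Both treated libraries were above every control, and Fcgr4 rose 2.38-fold (log2 1.25, SE 0.051, adjusted p = 3.75e-10). The nApoE3 level lay within the range of nApoE4, and within that of ControlA only with its replicate 2.

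Fcer1g, which encodes the chain that the activating receptors need to signal and to reach the surface, had the highest level per length in all 4 groups. It was at 262, 345 and 277 CPM in ControlA and at 273, 256 and 278 CPM with nApoE4. The ranges overlapped, and the log2 difference was -0.13 (SE 0.099, adjusted p = 0.302), with a 95% interval of -0.35 to 0.096. Without ControlA replicate 2 it was -0.0033 (adjusted p = 0.965). With 135, 135 and 141 CPM in ControlB and 204 and 201 CPM with nApoE3, the groups were apart, and Fcer1g rose 1.47-fold (log2 0.56, SE 0.026, adjusted p = 1.49e-09).

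Fcgr2b, the inhibitory receptor, had the largest change of the 5 genes with either fragment. ControlA was at 46.02, 47.4 and 43.9 CPM and nApoE4 at 119, 120 and 126 CPM. No library overlapped, and Fcgr2b rose 2.67-fold (log2 1.42, SE 0.058, adjusted p = 3.91e-08; without ControlA replicate 2, 1.44, adjusted p = 7.32e-10). ControlB was at 25.0, 25.4 and 26.4 CPM and nApoE3 at 77.9 and 76.0 CPM. Again the groups were apart, and the rise was 3.00-fold (log2 1.58, SE 0.035, adjusted p = 1.29e-12). Of all genes tested, 6.89% had a higher log2 difference than Fcgr2b with nApoE4 and 5.61% with nApoE3. Fcgr2b was thus among 21.3% of 13750 genes that rose with both fragments, and Fcgr3 among 22.3% that fell with both. With nApoE4, 3 of the 5 genes did not overlap between groups, and with nApoE3, 4 did not, against 63.6% and 77.6% of all genes tested.

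**Figure D2:**
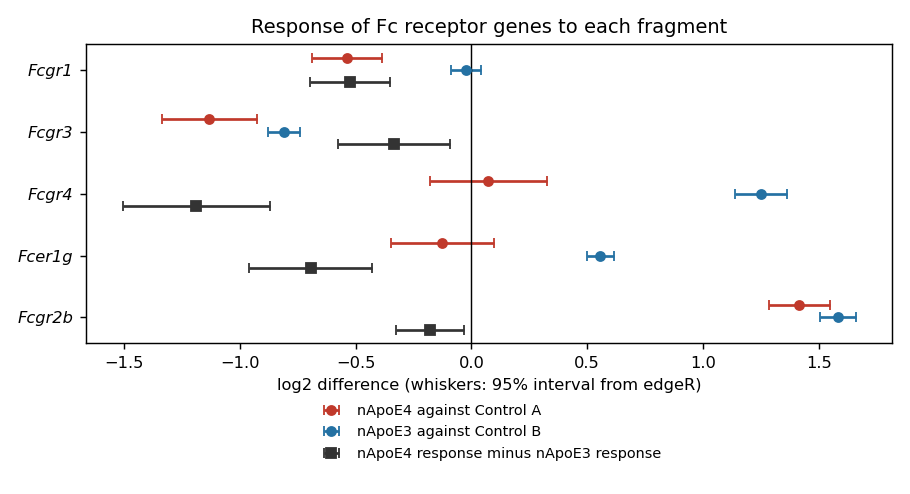
Log2 difference of each gene for nApoE4 against ControlA, for nApoE3 against ControlB and for the nApoE4 response minus the nApoE3 response, with 95% intervals that are not adjusted for the number of genes. The responses to both fragments lie on the same side of 0 and clear of it for Fcgr2b and Fcgr3, and the difference of responses is furthest from 0 for Fcgr4 at -1.19.

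An interaction term fitted to the 11 libraries asked whether the responses differed between the experiments. The nApoE4 response was lower than the nApoE3 response for 4 of the 5 genes, against 28.3% of 15287 genes called in either direction and 13.9% called lower. Fcgr4 differed most, by -1.19 on the log2 scale (SE 0.15, adjusted p = 5.95e-05). Fcer1g differed by -0.69 (SE 0.12, adjusted p = 8.98e-04) and Fcgr1 by -0.52 (SE 0.080, adjusted p = 3.46e-04). For Fcgr3 the difference was -0.33 (SE 0.11, adjusted p = 0.0409), and this call was lost under 8 of 11 single-library omissions. Fcgr2b did not pass, at -0.18 (SE 0.068, adjusted p = 0.0682), with a 95% interval of -0.33 to -0.031 before adjustment. Without ControlA replicate 2, the differences were -1.04 for Fcgr4, -0.56 for Fcer1g, -0.46 for Fcgr1, -0.22 for Fcgr3 and -0.15 for Fcgr2b, with the same calls.

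The untreated cells themselves differed between the experiments. All 5 genes were called between ControlB and ControlA, against 69.3% of 14249 genes, and in none of them did the libraries overlap (74.1% of genes). Fcgr1 was higher in ControlB and the other 4 were lower, against 34.4% and 34.9% of genes. Fcgr3, Fcgr4 and Fcer1g were lower in ControlB by nearly the same log2 difference, -1.12 for each (SE 0.088, 0.11 and 0.095, adjusted p = 1.30e-05, 4.85e-05 and 1.93e-05). Fcgr2b was lower by -0.85 (SE 0.051, adjusted p = 3.13e-06). Fcgr1 was higher, by 0.27 (SE 0.058, adjusted p = 0.00304). Without ControlA replicate 2 these were -0.999, -0.97, -0.99, -0.83 and 0.34, all called. The 2 genes that rose with nApoE3 and were not called with nApoE4, Fcgr4 and Fcer1g, were thus also low in the controls of nApoE3. Whether the starting level bears on the response was not tested.

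The ratio of activating to inhibitory receptor counts was taken within each library, where the scaling between libraries cancels. It describes the same counts and carries no test. Counts on Fcgr1, Fcgr3 and Fcgr4 together were 9.81, 11.9 and 10.5 times those on Fcgr2b in ControlA and 2.13, 2.06 and 2.09 times with nApoE4. ControlB gave 11.1, 11.05 and 11.04 and nApoE3 2.84 and 2.86. The ControlB ratios lay within the range of ControlA with its replicate 2 and above it without, and each treated library was far below every control. Fcgr3 relative to Fcgr2b went from 7.83 to 9.64 in ControlA to 1.45 to 1.52 with nApoE4, and from 7.18 to 7.26 in ControlB to 1.36 to 1.39 with nApoE3. Fcgr1 relative to Fcgr2b was 1.48 to 1.63 in ControlA, 0.394 to 0.409 with nApoE4, 3.31 to 3.46 in ControlB and 1.10 to 1.12 with nApoE3. Fcgr4 relative to Fcgr2b moved least between ControlB (0.442 to 0.469) and nApoE3 (0.359 to 0.371), as both genes rose, and more between ControlA (0.492 to 0.634) and nApoE4 (0.205 to 0.229). Per kb of exon, Fcer1g was 1.19 to 1.25 times the 3 activating receptors in ControlA, 2.12 to 2.18 times with nApoE4, 1.04 to 1.06 times in ControlB and 1.99 times with nApoE3. The chain thus stood higher in every treated library relative to the 3 receptors summed, of which Fcgr3 was the largest part. With nApoE3, Fcgr4 alone rose more than Fcer1g (log2 1.25 against 0.56).

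**Figure D3:**
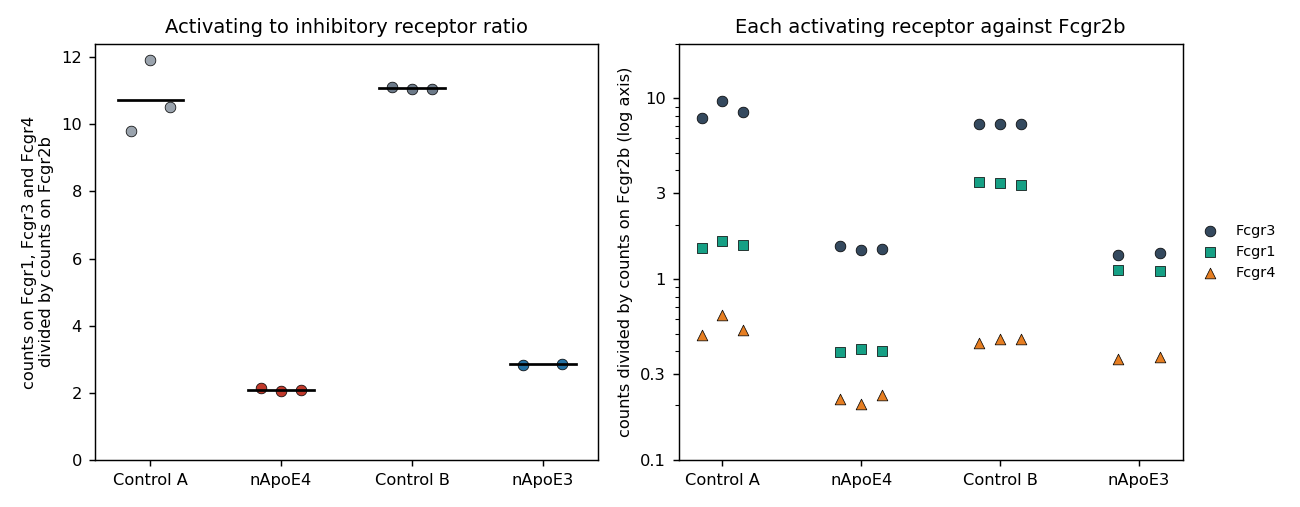
Left, counts on the 3 activating receptors divided by counts on Fcgr2b in each library, with the group mean as a bar. Right, the same for each activating receptor on a log axis. The ratio is between 9.81 and 11.9 in the 6 control libraries and between 2.06 and 2.86 in the 5 treated ones.

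Between genes, levels were compared per kb of the union of annotated exons. In ControlA the order of mean levels was Fcer1g (337 CPM per kb), Fcgr3 (228), Fcgr1 (27.4), Fcgr4 (20.1) and Fcgr2b (7.90), and neighbours in this order did not overlap. ControlB had the same order, at 157, 106, 33.5, 9.38 and 4.42 CPM per kb. With nApoE4, Fcer1g (308) and Fcgr3 (104) led, Fcgr4 (21.0) and Fcgr2b (21.0) overlapped, and Fcgr1 (18.8) was last. With nApoE3 the control order was kept, at 231, 60.9, 33.1, 22.4 and 13.3 CPM per kb. The place of Fcgr2b depends on its length, since the union holds 5790 bases and the transcript that matches RefSeq 1462. With the latter, a choice made after the data were seen, Fcgr2b came next after Fcgr3 in ControlA (31.3 CPM per kb), with nApoE4 (83.2) and with nApoE3 (52.6), and after Fcgr1 in ControlB (17.5).

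The members did not share 1 pattern over the 11 libraries. Likeness was measured as the root mean square difference of log2 CPM, with each gene centred on its own mean, and is a description. Fcgr4 and Fcer1g were closest, at 0.26, and Fcgr2b and Fcgr3 farthest apart, at 1.23. Among 11690 genes, those most like Fcgr2b were Cd80, a costimulatory ligand (0.10), Ticam1, the adaptor TRIF of Toll-like receptors (0.12), and Car13 (0.12). Nearest to Fcgr3 were Cyp27a1, Dmpk and Lmna (0.10, 0.13 and 0.13), to Fcgr1 Golt1b, Tmem60 and Slc44a2 (0.034, 0.058 and 0.068), to Fcgr4 Yipf7 and Wfdc17 (0.12 and 0.17) and to Fcer1g Ubb, Irf5 and Cstb (0.080, 0.090 and 0.096).

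The genes that stand beside the members on the chromosome were also read. Of 17 neighbours that are not members (the nearest pair on each side of each gene), 8 were tested with nApoE4, of which 2 rose and 3 fell, and 9 with nApoE3, of which 3 rose and 4 fell. These shares were near the 57.2% and 67.7% of all genes called. Gm39701, beside Fcgr2b, rose by 2.46 with nApoE4 and 2.79 with nApoE3 on the log2 scale, at up to 195 counts. Gm34968, a noncoding RNA 1057 bases from Fcgr2b, rose by 2.36 with nApoE3 and had at most 14 counts. Adamts4, a metalloprotease gene beside Fcer1g, rose by 1.41 and 3.70. The neighbours that fell with both fragments were Bola1, Tomm40l and Apoa2. The strand setting of the counting is not known, so reads of overlapping transcripts on the other strand cannot be told apart.

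The further genes of the pathway were read in 9 lists with 125 listed genes. The lists were chosen with earlier results of these data known, so their shares against all genes are a description. For the genes named from them and called, the SE of the log2 difference was 0.054 to 0.25 with nApoE4 (42 genes, adjusted p of at most 0.0339) and 0.024 to 0.41 with nApoE3 (41 genes, adjusted p of at most 0.0485). Leaving out ControlA replicate 2 changed the nApoE4 counts of 3 of the 9 lists, with 8 inhibitory signalling genes lower, 15 actin genes higher and 7 lower, and 4 oxidase genes higher. Other Fc receptor and Fc receptor-like genes, listed by name, did not move as 1 group. With nApoE4, 3 of 8 tested rose and 2 fell (median log2 -0.011, against 0.0013 over all genes), and with nApoE3, 3 rose and 3 fell (median 0.011, against -0.0026). With DESeq2's size factors in edgeR, 3 rose and 1 fell with nApoE3. Fcgrt, which encodes the neonatal receptor that salvages IgG, fell from 16.5 ± 1.46 to 9.89 ± 0.238 CPM with nApoE4 (SD, n = 3 each) and from 12.8 ± 0.903 (n = 3) to 6.89 ± 0.344 CPM (n = 2) with nApoE3. These were log2 differences of -0.73 (adjusted p = 5.38e-05) and -0.90 (adjusted p = 2.90e-07). Trim21, which encodes the cytosolic antibody receptor, rose from 12.5 to 65.8 CPM and from 15.6 to 63.5 CPM (log2 2.40 and 2.03, adjusted p = 1.69e-09 and 3.17e-11). Fcrlb, an Fc receptor-like gene, rose by 0.89 and 2.38 at under 2 CPM. Fcrl1 fell with nApoE4 by 0.46 (adjusted p = 1.30e-04), and its log2 difference with nApoE3 was 0.015 (adjusted p = 0.814). Fcrls fell with nApoE3 by 0.39 (adjusted p = 0.0485), a call that DESeq2's size factors in edgeR removed (adjusted p = 0.0531).

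Receptors that share Fcer1g with the Fc gamma receptors rose for the most part, 5 of 7 tested with nApoE4 (1 fell, median 1.08) and 3 of 5 with nApoE3 (1 fell, median 1.22). The share of genes higher over all genes tested was 28.6% and 33.1%. Clec4e, which encodes Mincle, a lectin for mycobacterial glycolipids and dead cells, was at 7.32 ± 1.40 CPM in ControlA and 644 ± 35.7 CPM with nApoE4 (n = 3 each). In the second experiment it was at 15.2 ± 1.15 (n = 3) and 608 ± 10.2 CPM (n = 2). Its log2 differences were 6.46 (SE 0.13, adjusted p = 6.93e-10) and 5.32 (SE 0.040, adjusted p = 3.22e-16). Clec4d, its partner lectin, rose by 1.65 and 2.37 (adjusted p = 5.68e-07 and 7.14e-13). Oscar, an osteoclast receptor of the same chain, fell by 0.95 and 0.97 at under 2 CPM. Of the other ITAM adaptors 4 were tested, with 1 higher and 2 lower for each fragment. Tyrobp, which encodes DAP12, fell by 0.29 (adjusted p = 0.0339; without ControlA replicate 2, -0.18, adjusted p = 0.0401) and 0.16 (adjusted p = 4.34e-04), while Cd247 rose by 2.07 and 1.72 and Cd79b fell by 1.71 and 1.33, both at low levels of at most 5.31 CPM.

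Proximal signalling genes went both ways. With nApoE4, 13 of 30 rose and 10 fell (median 0.11), and with nApoE3, 15 rose and 10 fell (median 0.25). The shares over all genes were 28.6% higher and 28.6% lower with nApoE4 and 33.1% and 34.6% with nApoE3, so the share that fell was near that of all genes. With library totals alone, 13 fell with each fragment. Src, a kinase gene, rose with either fragment. It went from 25.0 to 190 CPM with nApoE4 and from 7.96 to 86.8 CPM with nApoE3 (log2 2.93 and 3.44, adjusted p = 1.68e-09 and 4.57e-14). Malt1, a paracaspase downstream of Syk, rose by 2.68 and 2.12. Syk itself, chosen after its values were seen, went from 132 to 440 CPM and from 125 to 378 CPM (log2 1.74 and 1.59, adjusted p = 3.90e-08 and 8.63e-14). Lat2, a transmembrane adaptor, fell by 0.92 and 0.72, Plcg1, a phospholipase, by 0.67 and 1.06, and Vav3, an exchange factor, by 0.70 with nApoE4. Card9, the adaptor between Syk and NF-kappa B, rose with nApoE4 (from 101 to 148 CPM, log2 0.56, adjusted p = 2.57e-05) and fell with nApoE3 (from 69.2 to 41.9 CPM, log2 -0.73, adjusted p = 2.27e-09). The difference of its responses was 1.28 (SE 0.070, adjusted p = 7.46e-08).

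Genes that act below the inhibitory receptor mostly fell, while Fcgr2b rose. Of 10 inhibitory signalling genes, 6 fell and 1 rose with nApoE4 (median -0.43), and 8 fell and 1 rose with nApoE3 (median -0.39). Over all genes tested, 28.6% and 34.6% fell. Inpp5d, which encodes the SHIP-1 phosphatase recruited by FcγRIIb, fell from 78.5 ± 11.8 to 31.8 ± 2.00 CPM with nApoE4 (n = 3 each) and from 68.6 ± 1.80 (n = 3) to 25.6 ± 1.56 CPM (n = 2) with nApoE3. The log2 differences were -1.30 (SE 0.11, adjusted p = 5.57e-06) and -1.43 (SE 0.042, adjusted p = 1.97e-11). Dok2 and Dok1, adaptors that damp Ras signalling, fell by 0.85 and 0.43 with nApoE4 and by 0.51 and 0.69 with nApoE3. The exception was Ptpn11, which encodes the phosphatase SHP2 and rose by 0.48 and 0.25. Genes listed as other ITIM receptors were mostly higher, with 6 of 10 up and 2 down for nApoE4 (median 1.08). With nApoE3, 7 were up and 2 down (median 1.60). Over all genes tested, 28.6% were higher and 28.6% lower with nApoE4, and 33.1% and 34.6% with nApoE3. Lilrb4a went from 162 to 719 CPM and from 69.8 to 368.9 CPM (log2 2.16 and 2.40, adjusted p = 8.86e-09 and 9.64e-14). Pilra rose by 2.03 and 3.42 and Clec12a by 1.84 and 2.62. Cd33, a sialic acid receptor of microglia, fell by 1.43 and 1.20, and Cd300a by 0.66 and 0.15. Whether the mouse product of each listed gene, Cd33 among them, carries an ITIM was not checked.

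**Figure D4:**
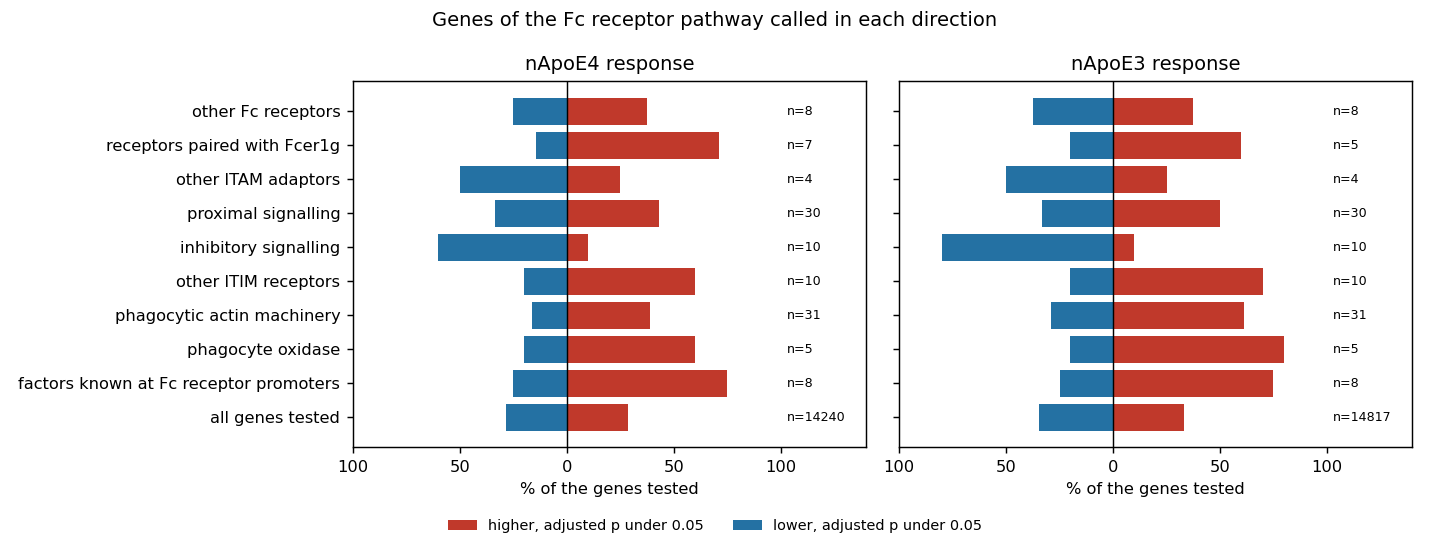
Percentage of the genes tested in each list that were called higher (bars to the right) or lower (bars to the left), for nApoE4 and nApoE3, with the same over all genes tested in the lowest bar and the number tested at the right. Of 10 inhibitory signalling genes, 6 and 8 fell, and of 8 factors known at Fc receptor promoters, 6 rose with either fragment. The lists were chosen with earlier results of these data known.

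The phagocytic actin machinery, which closes the cup around a bound particle, had 12 of 31 genes higher and 5 lower with nApoE4 (median 0.092). With nApoE3, 19 were higher, 9 lower and 3 not called (median 0.12), against 67.7% of all genes called (33.1% higher and 34.6% lower). Scaled by library totals alone, however, 12 were higher and 12 lower with nApoE3 (median -0.014). The share called with nApoE4, 17 of 31, was near the 57.2% of all genes. Marcksl1 and Marcks, substrates of protein kinase C at the membrane, rose by 2.91 and 2.15 with nApoE4 and by 3.07 and 1.55 with nApoE3. Vasp, an actin elongation factor, rose by 1.40 and 1.74. Wipf1, the partner of the Wiskott-Aldrich syndrome protein, fell by 1.18 and 0.52, Gsn (gelsolin) by 0.59 and 0.33 and Pip5k1c, a lipid kinase, by 0.55 and 0.50. Of the 5 phagocyte oxidase genes, 3 rose and 1 fell with nApoE4 and 4 rose and 1 fell with nApoE3, where 28.6% and 33.1% of all genes were higher. Cybb, its catalytic subunit, went from 113 ± 3.00 to 971 ± 6.61 CPM (n = 3 each) and from 130.3 ± 6.04 (n = 3) to 1178 ± 15.02 CPM (n = 2), or log2 3.11 (adjusted p = 6.81e-10) and 3.17 (adjusted p = 2.05e-15). Ncf1, a cytosolic subunit, rose by 1.35 and 1.12.

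Of 8 factors known at Fc receptor promoters, all were called, with 6 higher and 2 lower for either fragment (medians 1.60 and 1.61), where 57.2% and 67.7% of all genes tested were called. This list too was chosen with earlier results known, and the comparison carries no test. Irf1, an interferon gamma target that binds response elements of the kind marked in Fcgr4, went from 25.5 to 332 CPM with nApoE4 and from 31.4 to 171 CPM with nApoE3. Its log2 differences were 3.71 (adjusted p = 4.08e-10) and 2.44 (adjusted p = 6.28e-13). Irf9 and Stat2, subunits of the factor that binds such elements after type I interferon, rose by 2.42 and 2.27 with nApoE4 and by 2.35 and 2.61 with nApoE3. Spi1, which encodes PU.1 and was chosen after its values were seen, went from 268 to 678 CPM and from 213 to 433 CPM (log2 1.35 and 1.01, adjusted p = 2.19e-07 and 2.74e-11). Irf8 fell by 1.44 and 0.94 and Cebpa by 1.27 and 1.72. Whether any of these factors acts on the receptor genes was not tested.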

How the data were processed

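The authors trimmed single-end reads with Trim Galore 0.5.0, assessed them with FastQC 0.11.8, mapped them to GRCm38.p6 with HISAT2 2.1.0 and deposited raw HTSeq 0.11.0 counts of reads per gene. The annotation release, the strand setting and the overlap mode of the counting are not given in the sources used here. Of everything HTSeq tallied, 76.0 to 77.7% was on genes, and the rows that name no gene (22.3 to 24.0%) stayed out of library sizes and tests. Between replicates the chi-square per gene was 3.15 to 47.9, against 1 for counting error alone.

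Counts were analysed in R 4.3.3 with edgeR 4.0.16 (filterByExpr, TMM, quasi-likelihood F test, Benjamini-Hochberg over all genes tested), each fragment against its own controls, with the difference of responses as an interaction over 11 samples. The study's methods used DESeq2, run here (1.42.0) as an alternative. Standard errors are approximate, as the absolute log2 difference over the square root of F, and intervals cover 95%. CPM used 1 set of TMM factors over all libraries. Lengths came from GENCODE M21 transcripts, and positions and promoters from RefSeq for GRCm38.p6. The fits were tested on simulated data.

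The members and lists were chosen with earlier results of these data known. From each list, genes were named if among the 2 highest or 2 lowest log2 differences in a fragment comparison, with an adjusted p under 0.05 and at least 1 CPM in some group. A list with fewer than 5 genes tested could be named whole, and neighbours were named if called. A few genes these rules named are not reported here. Of the 126 genes written in the lists, 125 were found by symbol. Alternatives changed the scaling, the filter, the tool, the depth, the samples fitted and the gene length, and each library was left out in turn. Equal replicate numbers are not said to mark shared handling, so the main fits had no replicate block, and a block was a further alternative.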

Additional observations from a re-analysis of the deposited data

Results flagged for a closer look

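The nApoE4 and nApoE3 responses differed, by edgeR's interaction test over 11 samples at an adjusted p under 0.05, for the following named genes, each given as the nApoE4 response minus the nApoE3 response on the log2 scale. Because each fragment had its own experiment, fragment and experiment cannot be told apart. No group has the 4 samples that a test for a single outlying sample needs.

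Among the members the differences were -0.52 for Fcgr1, -0.33 for Fcgr3, -1.19 for Fcgr4 and -0.69 for Fcer1g. Fcgr1 was called lower with nApoE4 and not called with nApoE3, while Fcgr4 and Fcer1g were called higher with nApoE3 and not called with nApoE4. Of the other Fc receptor and receptor-like genes and the receptors paired with Fcer1g, Fcrl1 differed by -0.49, Fcrlb by -1.50 and Clec4d by -0.73. Trim21 differed by 0.37 and Clec4e by 1.14.

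In proximal signalling, Card9 differed by 1.28, with opposite called directions, Malt1 by 0.55, Plcg1 by 0.38 and Src by -0.53. Card9 was not alone in that list in having opposite called directions. In inhibitory signalling, Dok2 differed by -0.36 and Ptpn11 by 0.22. Among genes listed as other ITIM receptors, the responses of Pilra (-1.40), Clec12a (-0.79), Cd300a (-0.52) and Lilrb4a (-0.25) were lower with nApoE4. Of the 10 genes in that list, 7 were called lower and 1, which the naming rule did not pick, was called higher by 0.39. Over all genes tested, 13.9% were called lower and 14.4% higher. In the actin and oxidase lists, Wipf1 differed by -0.67, Vasp by -0.36, Marcks by 0.59 and Ncf1 by 0.22. Of the promoter factors, Irf1 differed by 1.26, Cebpa by 0.43, Spi1 by 0.32, Stat2 by -0.35 and Irf8 by -0.51. Adamts4, beside Fcer1g, differed by -2.30. The differences of Ncf1 and Ptpn11 were no longer called with DESeq2's size factors in edgeR (adjusted p = 0.0614 and 0.0509), nor those of Lilrb4a and Stat2 with library totals alone (adjusted p = 0.0592 and 0.0603).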

How the results depend on the processing

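Fcgr1, Fcgr2b and Fcgr3 kept their direction and call under all 14 alternatives for nApoE4, as did Fcgr2b, Fcgr3, Fcgr4 and Fcer1g under all 13 for nApoE3, with log2 ranges for Fcgr2b of 1.33 to 1.44 and 1.45 to 1.61 and for Fcgr3 of -1.22 to -1.02 and -0.94 to -0.78. The difference of responses was called under all 18 alternatives for Fcgr1, Fcgr4 and Fcer1g, and all 5 genes differed between the controls under all 14. The exceptions follow, and their cause was not tested. The nApoE4 difference of Fcgr4 ranged from -0.0028 to 0.21 when each library was left out in turn, and was called without ControlA replicate 2 alone. The nApoE3 difference of Fcgr1 was called at -0.16 with library totals only. Of the differences between the responses, that of Fcgr2b was called at -0.20 with counts thinned to the smallest library, and ranged from -0.21 to -0.15 with single libraries left out (called without ControlA replicate 3). That of Fcgr3 ranged from -0.40 to -0.22 and kept its call only when a ControlA library was left out. Same-numbered samples did not deviate together (correlations of -0.17 to -0.039 in the nApoE4 and -0.013 to -0.0079 in the nApoE3 experiment). With 2 or 3 libraries per group, such correlations cannot show whether equal numbers were handled together. With a replicate block, the difference of Fcgr3 was -0.35 (adjusted p = 0.128) and 2307 genes were called for the difference of responses, against 4331 without it. Mean level over the 11 libraries per kb depended on the length used. With the longest transcript it was 18.8 CPM per kb for Fcgr2b, 168 for Fcgr3 and 334 for Fcer1g, and with the RefSeq-linked transcript, added after seeing the data, 45.6, 168 and 338. Every member had at least 699 counts in every library.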
